A study of Caenorhabditis elegans with 2 samples.

Results

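The regions described here are the places near small nucleolar RNA (snoRNA) and small nuclear RNA (snRNA) genes where PHA-4::eGFP was recovered by chromatin immunoprecipitation and sequencing (ChIP-seq). A region was taken when its summit, the base with the most signal, lay from 1000 bp upstream to 200 bp downstream of the 5′ end of a gene annotated as snoRNA or snRNA. The rule used position only and no signal. It gave 288 of the 24890 regions in the list that the authors called on the pooled replicates. The annotation holds 346 snoRNA and 129 snRNA genes. Of the 288 summits, 251 lay in the window of a snoRNA gene and 39 in that of an snRNA gene, with 2 in both. In 18 cases the region lay in the windows of several of these genes, so neighbouring genes share regions. Of the 288 summits, 124 also lay in the promoter window, of the same size, of a protein-coding transcript, and 164 did not.

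PHA-4, a forkhead transcription factor of the FoxA kind, specifies the C. elegans pharynx and also acts in the gut, in the gonad and in adult lifespan. snoRNAs guide ribose methylation and pseudouridylation of ribosomal and other RNAs. Some are processed from introns of protein-coding host genes, often genes of the translation machinery, and others are transcribed from promoters of their own. snRNAs form the spliceosome, and the nematode spliced-leader RNAs, which are annotated here among the snRNAs, donate the short leader that is trans-spliced onto messenger RNAs. SL2 RNA provides the leader for downstream genes of operons, and SL1 RNA provides it for most other trans-spliced genes. In animals, snRNA and spliced-leader RNA genes carry a proximal sequence element upstream of the transcription start, which is bound by the snRNA-activating complex SNAPc.

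Both libraries came from whole young adult animals of strain OP37, mixed sex, with genotype unc-119(ed3) III and the transgene wgIs37, through which PHA-4 is expressed as an eGFP fusion. The samples form 1 group of 2 biological replicates with library fragments of 150 to 350 bp, so there is no contrast between groups, and no test was made. The labels give pha-4 as the antibody target and describe the experiment as ChIP against the eGFP fusion. Signal from whole animals mixes all tissues, and what drives the transgene is not given in the sources used here.

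The replicates stood apart. A q value not above 0.05 was given to 7548 of the 30000 regions of replicate 2 and to 13 of the 30000 of replicate 1. Of these 13, 0 were nuclear. Ranks in both replicates are therefore given beside the strongest regions. Signal is the authors' own unscaled value, and the percentile is the percent of regions in the same list with an equal or lower signal. The authors' optimal list, the regions kept after their reproducibility analysis, held 839 regions and was exactly the 839 regions of highest pooled signal, all at 40.98 or more. Membership in it is thus a threshold on the same signal and not a separate measurement. Read depth is unknown, and the 95% exact (Clopper-Pearson) intervals cover counting error over regions only.

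The sequences around the 5′ ends of genes on which the results turn are printed first, from the WBcel235 assembly (ce11), on the strand of the gene. Each runs from position -90 to 21 bases past the first base of the gene, which is position 0. Capitals mark GTCNG between -55 and -38, CGNAACCC between -75 and -50, or, anywhere upstream, the words TGGCGCAG, TGGTTANNG and GGTTCGA, which are common inside tRNA genes. These words were chosen after the upstream sequences and the signals had been seen. The 3 genes that open the list are SL2 RNA genes with strong regions, sls-2.8 and sls-2.15 are SL2 RNA genes with weaker ones, and sls-2.12 is an SL2 RNA gene with none. M163.13 is another snRNA gene, and the last 3 are snoRNA genes with an optimal peak at the 5′ end.
sls-2.1 (chrII:5844775-5844886): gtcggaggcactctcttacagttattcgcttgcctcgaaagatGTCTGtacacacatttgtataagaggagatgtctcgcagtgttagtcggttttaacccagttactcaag
sls-2.2 (chrII:5543508-5543619): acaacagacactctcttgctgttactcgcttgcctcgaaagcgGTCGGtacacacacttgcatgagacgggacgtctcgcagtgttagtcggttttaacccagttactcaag
sls-2.3 (chrII:5544252-5544363): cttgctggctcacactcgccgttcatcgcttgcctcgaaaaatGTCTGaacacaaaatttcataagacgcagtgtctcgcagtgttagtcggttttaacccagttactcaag
sls-2.8 (chrIII:12250375-12250486): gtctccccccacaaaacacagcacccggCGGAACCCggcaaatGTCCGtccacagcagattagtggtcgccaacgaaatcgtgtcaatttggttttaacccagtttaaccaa
sls-2.15 (chrIII:11090920-11091031): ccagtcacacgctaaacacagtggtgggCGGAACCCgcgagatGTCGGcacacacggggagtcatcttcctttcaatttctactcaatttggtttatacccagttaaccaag
sls-2.12 (chrIV:5261823-5261934): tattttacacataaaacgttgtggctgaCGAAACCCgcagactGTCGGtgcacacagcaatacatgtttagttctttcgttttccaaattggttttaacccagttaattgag
M163.13 (chrX:14476777-14476888): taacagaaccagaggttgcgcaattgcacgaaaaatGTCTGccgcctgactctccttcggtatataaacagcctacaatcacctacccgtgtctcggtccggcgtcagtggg
F01D5.12 (chrII:14018420-14018531): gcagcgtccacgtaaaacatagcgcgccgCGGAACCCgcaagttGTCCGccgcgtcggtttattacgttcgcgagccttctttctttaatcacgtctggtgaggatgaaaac
K02C4.7 (chrII:8091619-8091730): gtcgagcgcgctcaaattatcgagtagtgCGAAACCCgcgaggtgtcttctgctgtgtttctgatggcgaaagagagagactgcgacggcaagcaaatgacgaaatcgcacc
T04A8.17 (chrIII:4689750-4689861): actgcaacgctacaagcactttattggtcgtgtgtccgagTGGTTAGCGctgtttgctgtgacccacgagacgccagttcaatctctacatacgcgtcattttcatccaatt

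Regions at these genes had a higher signal than the list as a whole. Of the 288, 34 were in the optimal list (11.8%, 95% interval 8.32 to 16.1), against 3.37% of all pooled regions. A q value of at most 0.05 was reached by 115 (39.9%, interval 34.2 to 45.8), against 16.3% of all pooled regions. Their median signal was 18.5, between quartiles of 12.6 and 28.6, and the median over all regions was 13.1. This median placed them at the 75.9th percentile of the list. The snoRNA regions had a median signal of 18.2 with 27 of 251 in the optimal list, and the snRNA regions a median of 22.9 with 7 of 39. Among the snRNA regions, those at SL2 RNA genes had a median of 30.2 with 4 of 15. The others had a median of 15.8, below that of the snoRNA regions, with 3 of 24.

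**Figure D1:**
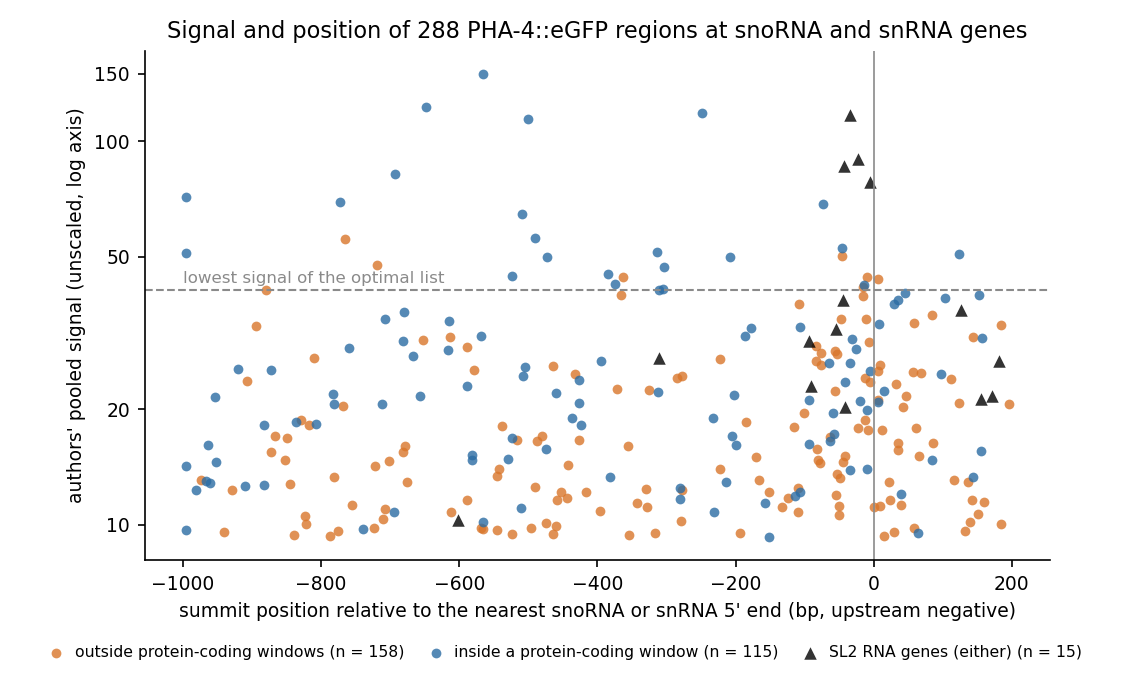
Authors' pooled signal on a log axis against the summit's position from the nearest snoRNA or snRNA 5′ end in bp, 1 point per region; the 15 regions at SL2 RNA genes are triangles. Signals above the dashed line at 40.98 form the optimal list; 4 SL2 regions close to the 5′ end lie between 78.1 and 116.9, and the highest regions inside protein-coding windows lie mostly farther upstream.

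The protein-coding neighbourhood divided the regions. Among the 164 outside every protein-coding window, 10 were in the optimal list (6.10%, interval 2.96 to 10.9), against 2.06% of all regions outside such windows. Of the same 164, 51 had a q value of at most 0.05 (31.1%, interval 24.1 to 38.8), against 11.9%. Their median signal was 15.7, and that of the other regions outside such windows was 12.5. The 237 regions at tRNA genes outside such windows had a like median of 15.6, with 22.8% at the q threshold and 2.11% in the optimal list. For the 74 at miRNA genes these values were 14.3, 21.6% and 2.70%. Among the 124 inside a protein-coding window, 24 were in the optimal list (19.4%, interval 12.8 to 27.4), against 5.53% of all regions inside such windows, and their median signal was 22.6 against 14.6 for the other regions there. Both kinds thus lay above the share for regions of the same promoter status.

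**Figure D2:**
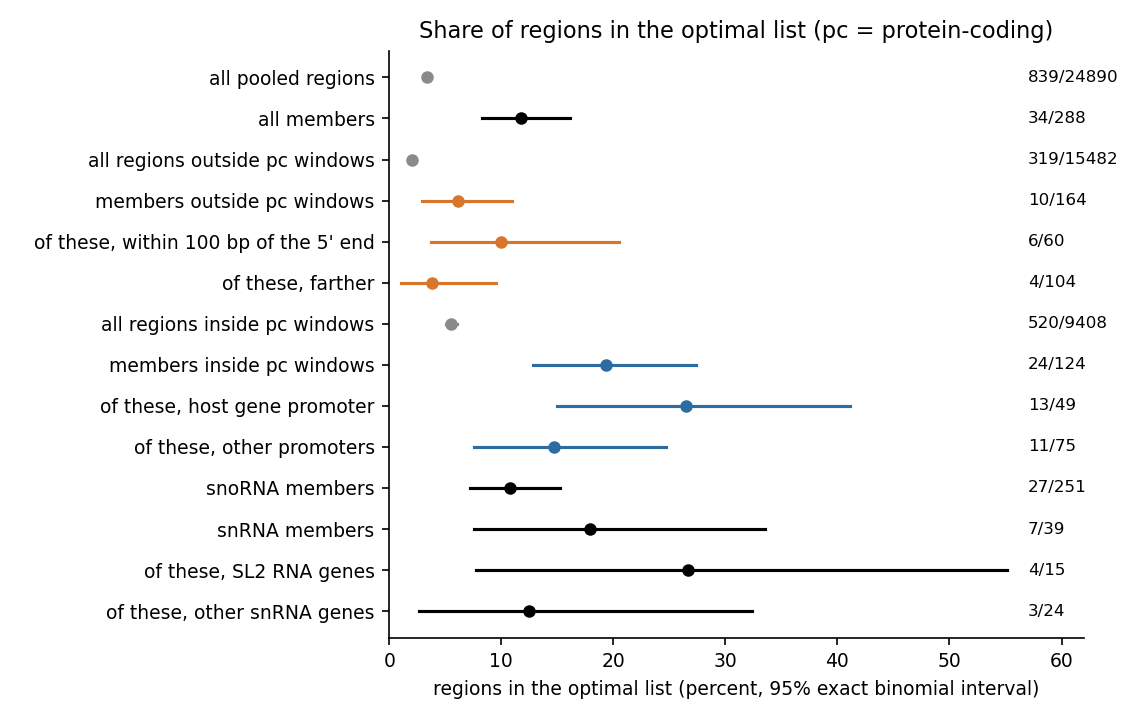
Percent of regions in the optimal list (points) with 95% exact binomial intervals (lines) and the counts at the right, for all regions in grey and for the regions at snoRNA and snRNA genes in black or colour. Members inside protein-coding windows (24 of 124) and outside them (10 of 164) both lie to the right of the grey point for their kind of position, and the intervals for SL2 RNA genes (4 of 15) and host gene promoters (13 of 49) are wide.

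The strongest snRNA regions were at SL2 RNA genes. At sls-2.1 the pooled signal was 116.9, the 11th of all 24890 regions, with the summit at -34 bp (region chrII:5844661-5845000). Its percentile was 37.8 in replicate 1 and 99.96 in replicate 2. At sls-2.4 on chromosome I the signal was 89.7 with the summit at -22 bp, with percentiles of 56.9 and 99.9. At sls-2.2 it was 86.0 with the summit at -43 bp (chrII:5543385-5543724), with percentiles of 97.2 and 99.8. At sls-2.3, which faces sls-2.2 on the opposite strand, it was 78.1 with the summit at -5 bp (chrII:5544108-5544447), with percentiles of 73.7 and 99.7. All 4 ranked near the top of replicate 2, and their ranks in replicate 1 were spread. The summits of sls-2.2 and sls-2.3 lay outside every protein-coding window, while those of sls-2.1 and sls-2.4 lay in the windows of H41C03.3 and egg-5, at -946 and -595 bp from those genes' starts.

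The other SL2 RNA genes had weaker regions or none. Of the 18 SL2 RNA genes, 13 had a region and 9 had one within 100 bp of the 5′ end. At sls-2.8 the signal was 38.7 with the summit at -44 bp, in percentile 96.2 of replicate 1 and 95.1 of replicate 2. At sls-2.16 it was 32.4 at -54 bp, with percentiles of 92.8 and 91.7. These regions were ranked alike in both replicates, unlike those of sls-2.1 and sls-2.4. At sls-2.9 the signal was 30.2 at -93 bp, with percentiles of 0.460 and 96.6, and this summit also lay in a tRNA gene's window. At sls-2.15 it was 20.2 at -42 bp. The region of sls-2.15 lay also in the window of sls-2.14, at -445 bp, and that of sls-2.16 in those of sls-2.5 and sls-2.18, at -784 and -954 bp. At sls-2.7 the summits were at -90 and 126 bp, with signals of 23.0 and 36.4. The 5 SL2 RNA genes on chromosome IV, sls-2.10 to sls-2.13 and sls-2.17, had 0 regions, and the 13 on other chromosomes all had at least 1. At sls-2.1, sls-2.2, sls-2.4 and sls-2.7 there was a second summit, 199 to 216 bp from the first, and no 2 summits in the pooled list were closer than 199 bp.

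**Figure D3:**
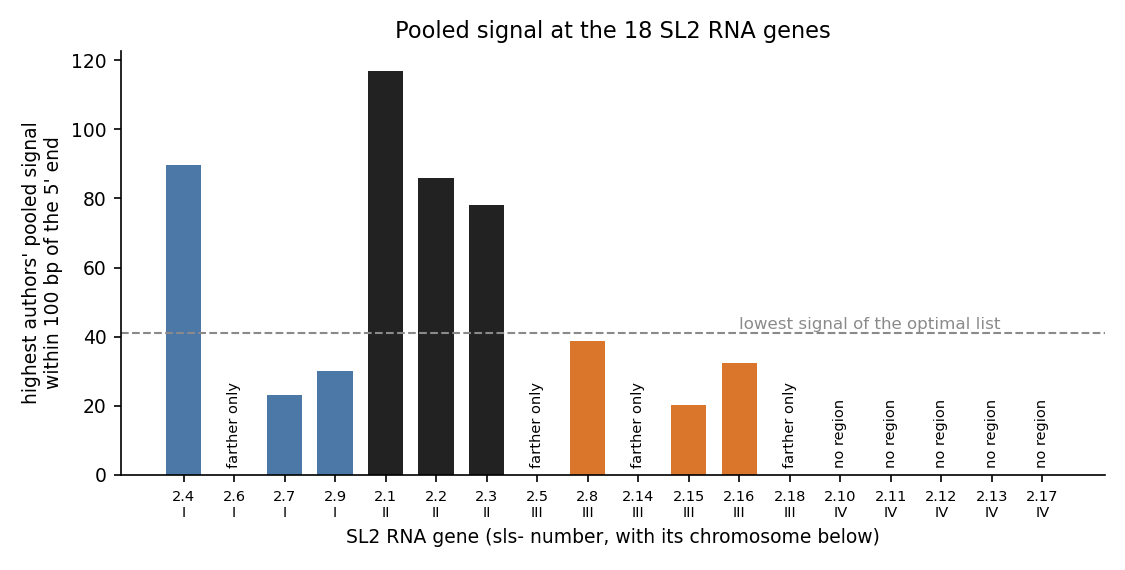
Highest authors' pooled signal within 100 bp of the 5′ end of each of the 18 SL2 RNA genes, ordered and coloured by chromosome, with the lowest signal of the optimal list dashed. Bars for sls-2.1, sls-2.2, sls-2.3 and sls-2.4 run from 78.1 to 116.9, those of 5 further genes stay below the line, 4 genes had only a more distant region and the 5 genes on chromosome IV had none.

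The 4 SL2 RNA genes with an optimal peak also resembled each other in sequence. Aligned end to end, they were 90.9% to 97.3% identical among themselves, and 70% to 80% identical to the other 14 SL2 RNA genes. Their upstream sequences shared a run of 15 bases that started at -65 in each, upstream of the word in capitals. This run occurred 4 times in the genome, each time upstream of 1 of these genes. At a like distance, sls-2.8, sls-2.15 and sls-2.12 carried CGNAACCC. The bases of these genes are distinct enough to place reads: between 80.9% and 98.4% of the 50-base stretches from -200 to 100 bp were unique in the genome at the 4 genes. Of the 12 SL1 RNA genes, which are repeated copies, 11 had 0.00% of these stretches unique and 1 had 19.9%, and 0 had a region. An absent region at SL1 RNA genes and at other repeated genes cannot be told apart from reads that could not be placed.

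Fewer of the other snRNA genes had a region. Of the 99 snRNA genes that are not spliced-leader genes, 20 had a region (20.2%, interval 12.8 to 29.5) and 3 an optimal peak (3.03%, interval 0.629 to 8.60), against 3.52% of protein-coding genes. At T11F9.15 the signal was 50.8, with percentiles of 91.0 in replicate 1 and 97.8 in replicate 2, and the summit was at 123 bp, inside the gene and in the window of snr-4, which encodes an Sm protein of the spliceosome. At M163.13 the signal was 41.7 with the summit at -16 bp, outside protein-coding windows, in percentile 97.5 of replicate 2 and with no overlapping region in replicate 1. At F54D8.7 it was 41.3 at -305 bp, in the window of cox-6A, a cytochrome oxidase subunit gene, with percentiles of 68.3 and 94.9. The regions are chrV:11980071-11980410 for T11F9.15 and chrIII:5081033-5081372 for F54D8.7. Other annotated snRNA genes share these names and had no region. Only M163.13 among the 3 had its summit within 100 bp of the 5′ end. These 3 genes are named because they make up the count of 3.

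When snRNA genes of at least 80% identity were joined, they fell into 31 families, of which 20 were single genes. The median identity within the largest families ranged from 78.4% among SL2 RNA genes to 99.02% in the family of 23. The family of 23 genes with a median length of 102 bp had a region at 6 genes, 2 of them within 100 bp. The family of 19 genes with a median length of 187 bp had a region at 2 genes and within 100 bp at 0. The family of 12 genes with a median length of 122 bp had regions at 4 genes, with a highest signal of 30.6. By contrast, 12 of the 15 genes of the largest SL2 family had a region, 8 of them within 100 bp. Of the 28 snRNA genes with under 50% unique 50-base stretches, 1 had a region (3.57%), and of the other 101 there were 32 (31.7%, interval 22.8 to 41.7). Among the genes other than spliced-leader genes, 5 of the 24 with every stretch unique had a region (20.8%) and 15 of the 75 others did (20%).

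Upstream words of the printed kind were common to the snRNA genes and not specific to those with a region. GTCNG between -55 and -38 was found in 85 of 129 snRNA genes (65.9%), in 41 of 346 snoRNA genes (11.8%) and in 2.04% of protein-coding genes. CGNAACCC between -75 and -50 was found in 44 snRNA genes (34.1%), 21 snoRNA genes (6.07%) and 0.0401% of protein-coding genes. Only the strand of the gene was searched, and the windows of GTCNG and CGNAACCC overlap from -55 to -50. Of the 103 snRNA genes with either word, 30 had a region (29.1%, interval 20.6 to 38.9) and 16 had one within 100 bp. Of the 22 with neither word and outside host introns, 2 had a region and 0 had one within 100 bp. All 4 strong SL2 RNA genes had GTCNG and not CGNAACCC at these places. The same held for sls-2.9, with its weaker region, and for sls-2.10 and sls-2.11, with none.

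The highest snoRNA regions were in the promoter windows of host genes. An intron of a protein-coding gene on the same strand held 145 of the 346 snoRNA genes, and 21 of these 145 had an optimal peak (14.5%, interval 9.19 to 21.3). Of the 201 snoRNA genes elsewhere, 11 did (5.47%, interval 2.76 to 9.58). Some of the 21 are neighbours that share a single peak, and each gene was counted. They are K11H12.12 and K11H12.13, F54E7.10 and F54E7.11, R151.11 and R151.12, Y37E3.21 and Y37E3.22, and H06I04.8 and H06I04.9. The 11 genes elsewhere had separate peaks, and the intervals make no allowance for sharing. Over all 288 regions, those of snRNA genes included, 49 lay in the promoter window of a host. Of these, 13 were in the optimal list (26.5%, interval 14.9 to 41.1), with a median signal of 27.2. The 13 include all 8 optimal members in ribosomal protein gene windows, whose shares are given below. The 75 regions in other protein-coding windows had 11 (14.7%, interval 7.56 to 24.7) and a median of 21.2. Regions of snRNA genes are in both groups. That of sls-2.6 is among the 49, and those of sls-2.1, sls-2.4, T11F9.15 and F54D8.7 are among the 11. Summits in host promoters lay at a median of -581 bp from the 5′ end of the RNA gene.

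The host genes with the highest signals included several of the translation machinery. At K11H12.13 and K11H12.12, in introns of rpl-15 (large-subunit ribosomal protein), the signal was 149.9, the 2nd of all regions, with percentiles of 94.6 in replicate 1 and 99.997 in replicate 2. At F54C9.12, in iff-2 (translation factor eIF5A family), it was 122.7, with percentile 99.98 in replicate 2 and no overlapping region in replicate 1. At F54E7.10, in rps-12 (small-subunit ribosomal protein), it was 118.6, with percentiles of 95.7 and 99.96. All 3 stood at the top of replicate 2, and only 2 of them overlapped a region of replicate 1. At C06A1.9, in cdc-48.1 (the CDC-48 segregase ATPase), it was 114.3, with percentiles of 13.5 and 99.98. At F28D1.13, in rps-23, it was 82.0, and at F17C11.15, in eef-1G (an elongation factor subunit), it was 71.6. At R151.11, in rpl-6, it was 64.8. The last 3 had percentiles of 99.8, 99.8 and 99.5 in replicate 2 and no overlapping region in replicate 1. At B0393.10, in fbxl-2 (an F-box protein), the signal was 69.5, with percentiles of 84.8 and 99.5, and at Y37E3.21, in Y37E3.8, it was 55.8, with percentiles of 99.04 and 98.0. Several of these summits lay in the window of a second protein-coding gene beside the host. These were K11H12.8 beside rpl-15, F54C9.14 beside iff-2 and ska-3 beside rps-12. The others were dpm-3 beside rps-23, ctf-4 beside eef-1G and phb-1 beside Y37E3.8. Which of the 2 genes a summit belongs to was not tested. F09G2.14, outside host introns and with its summit at -74 bp in the windows of F09G2.2 and attf-2, had a signal of 68.5, percentile 99.5 in replicate 2 and no overlapping region in replicate 1.

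Distances from protein-coding starts were taken to the nearest start, whether or not it was that of the host. In the K11H12.13 region the summit was -351 bp from the nearest protein-coding start, and in the F54C9.12 region it was -53 bp. The 201 bases centred on each summit are printed on the plus strand, with forkhead heptamers in capitals.
K11H12.13, rpl-15 (chrIV:654827-655027): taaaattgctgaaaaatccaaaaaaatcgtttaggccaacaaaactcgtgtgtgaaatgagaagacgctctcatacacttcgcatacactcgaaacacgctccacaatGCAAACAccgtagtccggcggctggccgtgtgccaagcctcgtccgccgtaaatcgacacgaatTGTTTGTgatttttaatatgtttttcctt
F54C9.12, iff-2 (chrII:8561320-8561520): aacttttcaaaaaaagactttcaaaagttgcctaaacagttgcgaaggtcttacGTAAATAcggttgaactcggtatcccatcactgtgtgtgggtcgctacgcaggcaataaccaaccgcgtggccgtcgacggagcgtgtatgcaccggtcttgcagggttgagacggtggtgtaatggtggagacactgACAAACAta
Each holds 2 such heptamers, the nearest starting at 8 bp from the summit in the K11H12.13 region and at -46 bp in the F54C9.12 region. Ribosomal protein genes accounted for 17 of the 124 regions inside protein-coding windows. Of these, 8 were in the optimal list (47.1%, interval 23.0 to 72.2), and of the 69 regions in ribosomal protein gene windows without a snoRNA or snRNA gene nearby there were 31 (44.9%, interval 32.9 to 57.4). Leaving ribosomal protein genes out, 16 of the remaining 107 were in the optimal list (14.95%, interval 8.80 to 23.1).

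Outside protein-coding windows the regions gathered at the 5′ end of the RNA gene itself. Of these 164 summits, 35 lay from -100 to -1 bp, 25 from 0 to 99 bp and 12 from -200 to -101 bp. The median signal was 24.1 in the bin from -100 to -1 bp, where 5 were in the optimal list and 20 reached the q threshold of 0.05. In the bin from -200 to -101 bp it was 12.8, with 0 in the optimal list and 1 at the q threshold. Within 100 bp on either side, 6 of 60 were in the optimal list (10%, interval 3.76 to 20.5) and the median signal was 20.7. Farther away, 4 of 104 were (3.85%, interval 1.06 to 9.56), with a median of 13.2. All regions outside protein-coding windows had 2.06% in the optimal list and a median of 12.5. The split at 100 bp was chosen after the positions had been seen. Regions within 100 bp had a median G+C content of 45.8% around the summit, against 37.3% for those farther away and 36.3% over all regions, and the part this plays in the signal was not tested.

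**Figure D4:**
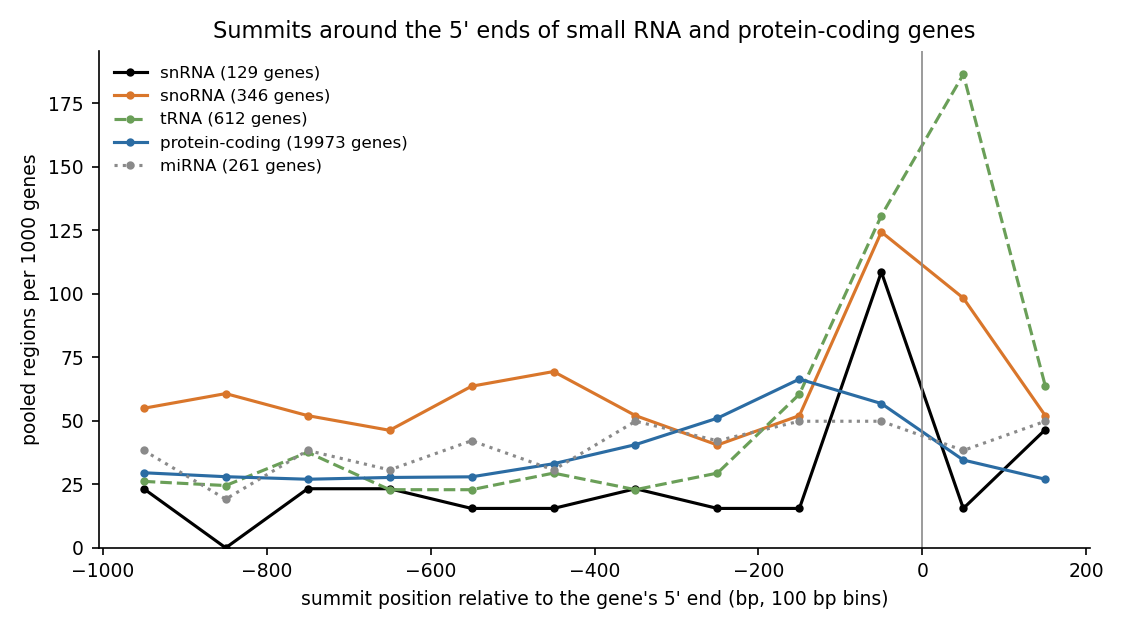
Pooled regions per 1000 genes in 100 bp bins from the 5′ end (one count per region and gene) for snRNA, snoRNA, tRNA, protein-coding and miRNA genes, upstream to the left. The snRNA and snoRNA lines peak in the bin from -100 to -1 bp at 108.5 and 124.3, the tRNA line peaks at 186.3 in the bin from 0 to 99 bp and the protein-coding line has its maximum of 66.4 from -200 to -101 bp.

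Beside the SL2 RNA genes and M163.13, the optimal peaks outside protein-coding windows were at 7 snoRNA genes. At T27A8.8 the signal was 55.5 with the summit at -765 bp, with percentiles of 65.3 in replicate 1 and 99.2 in replicate 2. At T04A8.17 it was 50.2 at -46 bp, with percentiles of 74.6 and 98.5. At T28B8.11 it was 47.5 at -719 bp, with percentiles of 97.6 and 96.0. Of these 3, only T04A8.17 had its summit at the RNA gene. At ZK484.9 the signal was 44.4 at -10 bp, with percentile 98.1 in replicate 2 and no overlapping region in replicate 1. At C04A2.16, in an intron of egl-27, it was 44.3 at -363 bp, with percentiles of 12.2 and 98.5. At F01D5.12, in an intron of F01D5.10, it was 43.8 at 6 bp, with percentiles of 94.0 and 96.9. ZK484.9 and F01D5.12 thus had the summit within 10 bp of the annotated start. At K11D9.10 it was 40.98 at -880 bp, with percentile 97.5 in replicate 2 and no overlapping region in replicate 1. K02C4.7, whose sequence is printed above, had its summit at -14 bp with a signal of 42.3, with percentiles of 82.2 and 96.7, within the window of ltd-1, and is named for its upstream words.

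A group of snoRNA genes carried words of tRNA genes upstream. TGGCGCAG, TGGTTANNG or GGTTCGA occurred inside 417 of 612 tRNA genes (68.1%) and, from -90 to -1 bp, in 30 snoRNA genes (8.67%), in 0 snRNA genes and in 0.345% of protein-coding genes, on the strand of the gene. Of the 29 such snoRNA genes without the snRNA words, 20 had a region within 100 bp (68.97%, interval 49.2 to 84.7), among them T04A8.17 and ZK484.9. Of the 159 snoRNA genes with neither kind of word and outside host introns, 31 did (19.5%, interval 13.6 to 26.5). Of the 113 in host introns with neither kind, 13 did (11.5%, interval 6.27 to 18.9), and of the 45 with snRNA words 13 did (28.9%, interval 16.4 to 44.3). In 15 of the 29 the gene lay in a host intron, and 10 of those 15 had a region within 100 bp (66.7%). For tRNA genes themselves the share was 194 of 612 (31.7%, interval 28.0 to 35.5). Of the 342 regions in tRNA gene windows, 87.1% had a summit whose 50 bases were unique in the genome, against 99.5% of all pooled regions. Uniqueness around the tRNA genes was not computed, so the part that unplaced reads play in their share was not tested. As the words were chosen with the signals known, these shares are a description of the genes that carry them.

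Counted over genes, regions were about as frequent at snoRNA genes as at tRNA genes and less so at snRNA genes. A region lay in the window of 202 of 346 snoRNA genes (58.4%, interval 52.99 to 63.6) and of 33 of 129 snRNA genes (25.6%, interval 18.3 to 34.0). The share was 54.2% for tRNA genes (interval 50.2 to 58.2), 37.2% for miRNA genes and 38.9% for protein-coding genes, the last over all annotated transcript starts. An optimal peak was present at 9.25% of snoRNA genes, 5.43% of snRNA genes, 1.80% of tRNA genes, 2.299% of miRNA genes and 3.52% of protein-coding genes. The optimal peak was within 100 bp at 5 of the 7 snRNA genes and at 6 of the 32 snoRNA genes that had one. All 4 SL2 RNA genes with an optimal peak had it within 100 bp, as did 1 of the 3 other snRNA genes. Genes that share a peak were each counted.

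Forkhead heptamers, the words that PHA-4 and related factors recognise, had about the share found at other regions. Any of the 8 heptamers that begin with TATTT or TGTTT and end in AC, AT, GC or GT, on either strand within 100 bp of the summit, was found at 94 of the 288 (32.6%, interval 27.3 to 38.4) and at 36.6% of all pooled regions. In the optimal list it was found at 14 of 34 (41.2%, interval 24.6 to 59.3), against 45.8% of all optimal peaks. It was absent within 100 bp of the strongest summit at each of sls-2.1, sls-2.2, sls-2.3 and sls-2.4. GAGAGAG was found at 2 of the 34 optimal members (5.88%, interval 0.720 to 19.7) and at 17.2% of all optimal peaks. The GATA-type word TGATAA was found at 3 of the 34 (8.82%, interval 1.86 to 23.7) and at 27.1% of all optimal peaks, and the E-box CACGTG at 1 of the 34 (2.94%, interval 0.0744 to 15.3) and at 13.1%. For TGATAA the interval lay below the share of all optimal peaks, and for the forkhead heptamers, GAGAGAG and CACGTG it included it. Median G+C content around the summit was 44.0% for the optimal members and 40.3% for the other optimal peaks. For all 288 it was 40.3%, and over all pooled regions 36.3%. The part this plays in the shares of these words was not tested.

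Both replicates held most of these regions, with different ranks. A region of replicate 1 overlapped 169 of the 288 by at least 1 bp (58.7%, interval 52.8 to 64.4), against 49.8% of all pooled regions. In replicate 2 it was 256 (88.9%, interval 84.7 to 92.3), against 79.7%. Among the 839 strongest regions of replicate 1 there were matches for 23 of the 288 (7.99%, interval 5.13 to 11.7) and for 3.16% of all pooled regions. Among the 839 strongest of replicate 2 there were matches for 31 (10.8%, interval 7.43 to 14.9) and for 3.49%. The share was thus above that of all regions in each replicate. A match in both was found for Y37E3.21, W06H8.17 and D1007.20, named because they make up this count of 3 (1.042%, interval 0.215 to 3.01), and for 112 of all pooled regions (0.450%).

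Of the 39 snRNA regions, 8 matched one of the 839 strongest of replicate 2 (20.5%, interval 9.30 to 36.5) and 0 one of those of replicate 1 (interval 0 to 9.03, which includes the 3.16% of all pooled regions). For the 15 regions at SL2 RNA genes it was 6 in replicate 2 and 0 in replicate 1. The 6 are also among the 8 and belong to sls-2.1, sls-2.2, sls-2.3 and sls-2.4. Both regions of sls-2.2 matched the same region of replicate 2, and both regions of sls-2.4 are counted. The interval makes no allowance for this. For the 60 regions outside protein-coding windows and within 100 bp of the 5′ end it was 5 and 0. The intervals for 0 of 15 and 0 of 60, up to 21.8 and 5.96, also include the 3.16% of all pooled regions. All 34 optimal members overlapped a region of replicate 2, at percentiles from 94.9 to 99.997, and 24 overlapped one of replicate 1, at percentiles from 12.2 to 99.7. The other 10 had no overlapping region in replicate 1. These shares, 100% and 70.6%, were near those of the optimal peaks elsewhere, 100% in replicate 2 and 69.1% in replicate 1.

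**Figure D5:**
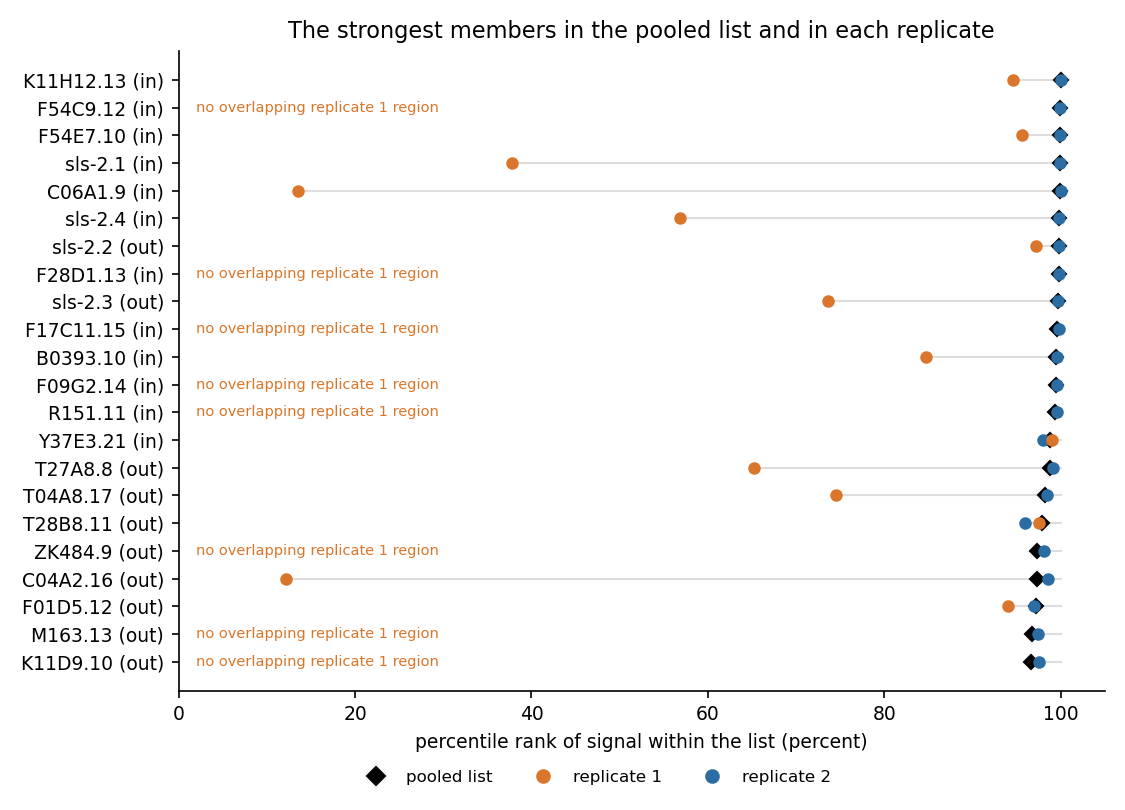
Percentile rank of signal in the pooled list (diamonds), replicate 1 (orange) and replicate 2 (blue) for the 15 strongest optimal members and the 10 strongest outside protein-coding windows, each marked as in or out of such a window. Replicate 2 lies between 96.0 and 99.997 for every member shown, while replicate 1 ranges from 12.2 to 99.04 or has no overlapping region.

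The genes for the proteins that act with these RNAs were examined from lists of names. Among the snoRNP core proteins, which form the particle around a snoRNA, 2 of the 7 genes found in the annotation had an optimal peak, beside 3.52% of all protein-coding genes. These were fib-1 (the fibrillarin methyltransferase), with a signal of 69.4 and percentiles of 95.7 in replicate 1 and 99.3 in replicate 2, and dkc-1 (the pseudouridine synthase), with a signal of 43.0 and a percentile of 98.6 in replicate 2 only. All 6 core genes with a region had a q value of at most 0.05 there, each listed gene being taken at its highest region. Of all regions inside protein-coding windows, taken singly, 23.6% had such a q value. The share over all protein-coding genes was not counted. Among the Sm proteins, the ring around snRNAs, 2 of 7 had one, snr-3 at 57.98 and snr-4 at 50.8, the latter in the same region as T11F9.15. Among the related LSm proteins 1 of 7 did, lsm-7 at 55.6. The regions of snr-3 and lsm-7 had percentiles of 99.01 and 98.8 in replicate 2 and no overlapping region in replicate 1. In the Integrator complex, which in animals cleaves the 3′ ends of nascent snRNAs, 3 of 11 had one, ints-4 at 83.7, ints-1 at 56.2 and ints-11 at 46.3, with percentiles of 99.8, 98.6 and 98.3 in replicate 2. Of these 3, ints-4 and ints-1 overlapped a region of replicate 1, at percentiles of 60.1 and 94.4. Among the SNAPc genes 0 of 7 had an optimal peak and 1 had a region, snpc-3.4 with a signal of 30.3, and among 4 biogenesis genes (smn-1, smi-1, tgs-1 and xpo-1) 0 had an optimal peak and all 4 a region of q above 0.05.

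At the edges of the window the signals were of the ordinary range, with exceptions just inside both edges. Just inside the upstream edge were F17C11.15 at -996 bp and Y43B11AR.7 at -995 bp, with signals of 71.6 and 51.0. The summit of F17C11.15 lay in the windows of eef-1G and ctf-4, and that of Y43B11AR.7 in the window of rps-4. The region of Y43B11AR.7 had percentile 99.1 in replicate 2 and, like that of F17C11.15, no overlapping region in replicate 1. Just outside were regions at -1015 bp of R166.7 and -1032 bp of Y40B1A.6, with signals of 15.8 and 13.8. At the downstream edge C26B2.14 and T26A8.6, both at 184 bp, and C41C4.16 at 196 bp lay inside, with signals of 10.05, 33.1 and 20.7. The region of T26A8.6 had percentiles of 44.9 in replicate 1 and 94.8 in replicate 2. W04G5.11 at 207 bp and K07C10.2 at 216 bp lay outside, with signals of 11.9 and 12.8.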

How the data were processed

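ChIP-seq of PHA-4::eGFP in whole young adults gave peak lists in narrowPeak format, which the authors deposited on ce10 and ce11; the ce11 lists were used. Per the deposited notes, each replicate's relaxed list holds peaks and background as input for the irreproducible discovery rate analysis, the alignments of both replicates together gave a pooled relaxed list, and the optimal list was made from all of these. The authors' deposited signal has no stated scaling, so lists were compared by rank only. The deposited −log10 q value was used for the threshold of 0.05. The aligner, the peak caller and its version, and the read depth were not given in the sources used here. Intervals and shares cover counting error only.

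Summits were set against Ensembl release 115 genes (WBcel235), with windows of 1000 bp upstream and 200 bp downstream. The pooled list holds nuclear regions only. Overlap with a replicate required 1 bp, the largest overlap being taken, so 2 neighbouring regions can share a replicate region. Uniqueness was counted for 50-base stretches on both strands. Gene identity came from global alignments in Biopython 1.88, and the rest from Python 3.11.15, numpy 2.4.6, pandas 2.3.3 and scipy 1.17.1. The code was tested on simulated data with planted regions. Members and lists were chosen with earlier results of these data known. With 1 group of 2 replicates no test was made, and values stand beside those of all regions. Genes named with values were the 15 optimal members of highest signal, the 10 highest outside protein-coding windows, the 3 highest of each biotype, the members at the window edges and protein partners with an optimal peak; others are named with the reason. The gene names nhp-2, lsm-2, snpc-3.3, ints-10 and ints-12 had no match in the annotation's symbols. Alternatives were narrower windows, each replicate alone, unique summits, 1 region per cluster and stricter thresholds.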

Additional observations from a re-analysis of the deposited data

How the results depend on the processing

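The 15 summary values were recomputed under 42 alternatives, of which 27 stayed within the 95% interval of the value reported and 15 did not. No paired analysis was possible because there is 1 group. With each replicate alone, the share of members among the 839 strongest regions ranged from 7.94% in replicate 1 to 9.1% in replicate 2, against 2.797% of each list, and outside protein-coding windows from 4.55% to 4.90%, against 2.11% of replicate 1 and 1.67% of replicate 2. The share with a q value of at most 0.05 ranged from 0.00% in replicate 1 to 50.3% in replicate 2, and the median percentile from 63.6 to 75.4. With only the optimal peaks above that list's middle rank, the shares were 6.25% of all members and 1.83% of those outside protein-coding windows, fewer by construction. With q at most 0.01 the share was 28.8%, and with 1 region per cluster 46.3% had q at most 0.05. With an overlap of at least 50% of the pooled region, 47.6% of members were seen in replicate 1 and 79.9% in replicate 2. With a window of 500 bp upstream and 100 bp downstream, 39.9% of snoRNA genes had a region. Within 50 bp of the summit, forkhead heptamers were at 18.8% of members, GAGAGAG at 2.78% and TGATAA at 9.38%, as a shorter window holds fewer words. Without TGGCGCAG, 5.20% of snoRNA genes had a tRNA gene word upstream; this alternative, that for the placed words and the 50 and 150 bp limits near the 5′ end were added after seeing the data. Read depth is unknown.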
